A study of Homo sapiens with 6 samples.

Results

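The genes described here are 33 genes of DNA replication and S phase, taken from a list that spans origin licensing, helicase activation, DNA synthesis, nucleotide supply and the E2F factors that switch many of them on. They are 33 of the 18852 genes named on the array, and 49 probes are annotated to them. Expression was measured in RWPE-1 cells, a line of human prostate epithelial cells that was immortalised with a human papillomavirus and does not form tumours. The cells carried either LNA-205, an antisense locked nucleic acid directed against the microRNA miR-205, or LNA-Scr, a scrambled oligomer used as the control. Each oligomer was transfected at 100 nM, and RNA was taken 72 h later. The 3 control samples carry the letters A, B and C and the 3 LNA-205 samples D, E and F, and each went onto 1 single-colour Illumina bead array. The labels do not say whether the 3 transfections of a group came from separate cultures or passages, so p-values measure the spread between these samples, which may be technical. The comparison asks whether replication and S-phase transcripts differed between cells given LNA-205 and cells given LNA-Scr.

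All 6 arrays came from 1 cell line, so the controls share its immortalisation. Between 12585 and 14195 of 48799 probes per array exceeded the negative control beads (detection p under 0.01), and pairs of arrays differed by an SD of 0.291 to 0.330 (log2) over detected probes, so no array was a copy of another. Of 7 basal prostate epithelial markers with a probe, 6, among them KRT5 and KRT14, were detected on all 6 arrays and KRT15 on 3, and all 5 general epithelial markers, such as CDH1 and EPCAM, were detected on all 6. The luminal prostate markers KLK3, KLK2, TMPRSS2 and ACP3 were detected on 0 arrays, and so were 7 of 8 immune and endothelial markers and 7 of 10 stromal markers, while the stromal marker ACTA2 was detected on all 6. In bulk RNA, a change in the share of cells in S phase and a change in transcript per cell cannot be told apart.

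Replication starts at origins that are licensed in G1, when the origin recognition complex, CDC6 and CDT1 load the ring-shaped MCM2 to MCM7 helicase onto DNA. In S phase CDC45 and the GINS complex join the ring to make the active helicase, polymerases copy the strands behind it, and the clamp PCNA, placed by the RFC clamp loader, holds polymerases on DNA. Transcription of most of these genes rises at the G1/S border through E2F factors, which the retinoblastoma protein RB restrains until cyclin-dependent kinases release them. The E7 protein of oncogenic papillomaviruses binds RB and frees E2F, so E2F target genes are known to be active in lines made with such viruses.

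The microRNA shown here is the one that the oligomer LNA-205 is directed against. How far that microRNA was blocked is not shown by the values given here. It lies on chromosome 1 at chr1:209432166-209432187, plus strand (RefSeq, GRCh38.p14), and capitals mark the seed, bases 2 to 8:
hsa-miR-205-5p: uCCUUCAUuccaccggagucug

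Many of these genes shared a feature of promoter sequence. Sequence itself was not used to choose them. Most are genes whose transcription rises through E2F factors, so a high share of E2F-type motifs is no independent result. RefSeq promoters, running from 250 bases before to 50 after a gene's start, were at hand for 30 of the 33 genes. On either strand they were searched for the 8-letter E2F-type motifs TTTGGCGC, TTTCCCGC, TTTCGCGC and TTTGCCGC. At least 1 match was found for 17 of 30 genes (56.7%), against 3 of 24 G2/M genes (12.5%), 7.15% of 7438 genes tested on the array and 3.99% of 27305 genes in the table. The CCAAT box, searched as CCAAT on either strand, was found for 63.3% of the replication genes, 87.5% of the G2/M genes and 44.6% of genes tested. Genes with more than 1 listed start have more chances of a match. A match describes these letters and is no evidence of a bound site.

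The windows below show 1 gene per role, the measured gene with a match and the smallest p in its role, as 30 bases around the match nearest the start (GRCh38.p14, read along the gene's strand, matches in capitals). They are MCM7 at chr7:100101388-100101417 (minus), GINS2 at chr16:85688967-85688996 (minus), POLE2 at chr14:49688201-49688230 (minus), RFC3 at chr13:33818083-33818112 (plus), LIG1 at chr19:48170440-48170469 (minus), TYMS at chr18:657603-657632 (plus), E2F2 at chr1:23531257-23531286 (minus) and UHRF1 at chr19:4909476-4909505 (plus). Matches on the opposite strand read as GCGCCAAA or GCGGGAAA.
MCM7: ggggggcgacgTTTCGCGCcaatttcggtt
GINS2: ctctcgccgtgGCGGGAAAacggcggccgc
POLE2: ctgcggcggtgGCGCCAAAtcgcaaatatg
RFC3: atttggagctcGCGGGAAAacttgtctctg
LIG1: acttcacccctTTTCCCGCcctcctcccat
TYMS: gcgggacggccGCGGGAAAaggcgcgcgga
E2F2: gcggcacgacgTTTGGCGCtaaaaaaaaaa
UHRF1: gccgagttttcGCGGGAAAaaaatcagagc

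MCM6 held the most matches, 4, as overlapping matches of TTTGGCGC on its own strand and TTTCGCGC on the other, at 2 places. The stretch lies at chr2:135876511-135876606 on the minus strand:
MCM6: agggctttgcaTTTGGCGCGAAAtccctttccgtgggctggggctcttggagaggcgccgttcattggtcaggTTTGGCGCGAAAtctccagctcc

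No replication or S-phase gene passed the test between LNA-205 and LNA-Scr cells. Of the 33 genes, 29 passed the detection filter, a detection p under 0.01 on at least 3 arrays, and all 29 were detected on all 6 arrays. At a limma adjusted p under 0.05 over 10803 features, 0 were higher and 0 were lower, where 0.00926% of all features passed. The smallest adjusted p among them was 0.793, for RFC3. At an unadjusted p under 0.05 the counts were also 0 higher and 0 lower, against 3.19% and 3.07% of all features, or 6.27% in either direction. That count was 1 to 3 in 8 of 17 other settings. It was 3 with arrays scaled to a common median (MCM4, MCM7 and GINS2, all lower), where the median of all features was −0.161. RFC3 was counted without background correction, with the authors' processed values and with an intensity trend in the variance. The fits without array A (RFC3), D (MCM7), E (MCM4 and CHAF1A) or F (RFC3) gave the others. Values were higher in LNA-205 for 15 genes and lower for 14 (49.8% of all features were higher), and the median log2 difference was 0.00, against 0.00 over all features.

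The median absolute log2 difference was 0.11 for the 29 genes and 0.10 for all features, and the median SE was 0.12 and 0.13. Brighter probes differed less over the whole array, and most of these genes have bright probes: above a normalized log2 intensity of 10 the median absolute difference was 0.12 for 26 of the 29 genes and 0.08 for all features. The log2 differences ran from −0.19 (MCM7) to 0.26 (RFC3). For 24 of the 29 genes the 95% interval lay within 0.5 of 0, as it did for 68.9% of all features, and for all 29 it lay within 1 of 0. The exceptions at 0.5 were E2F2, CHAF1A, RFC3, RFC5 and POLD1. A change smaller than these intervals was not detectable with 3 arrays per group. The groups did not overlap for MCM10, which was lower, and POLE2, which was higher, or 2 of 29, against 12.2% of all features (5.78% lower and 6.38% higher).

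**Figure D1:**
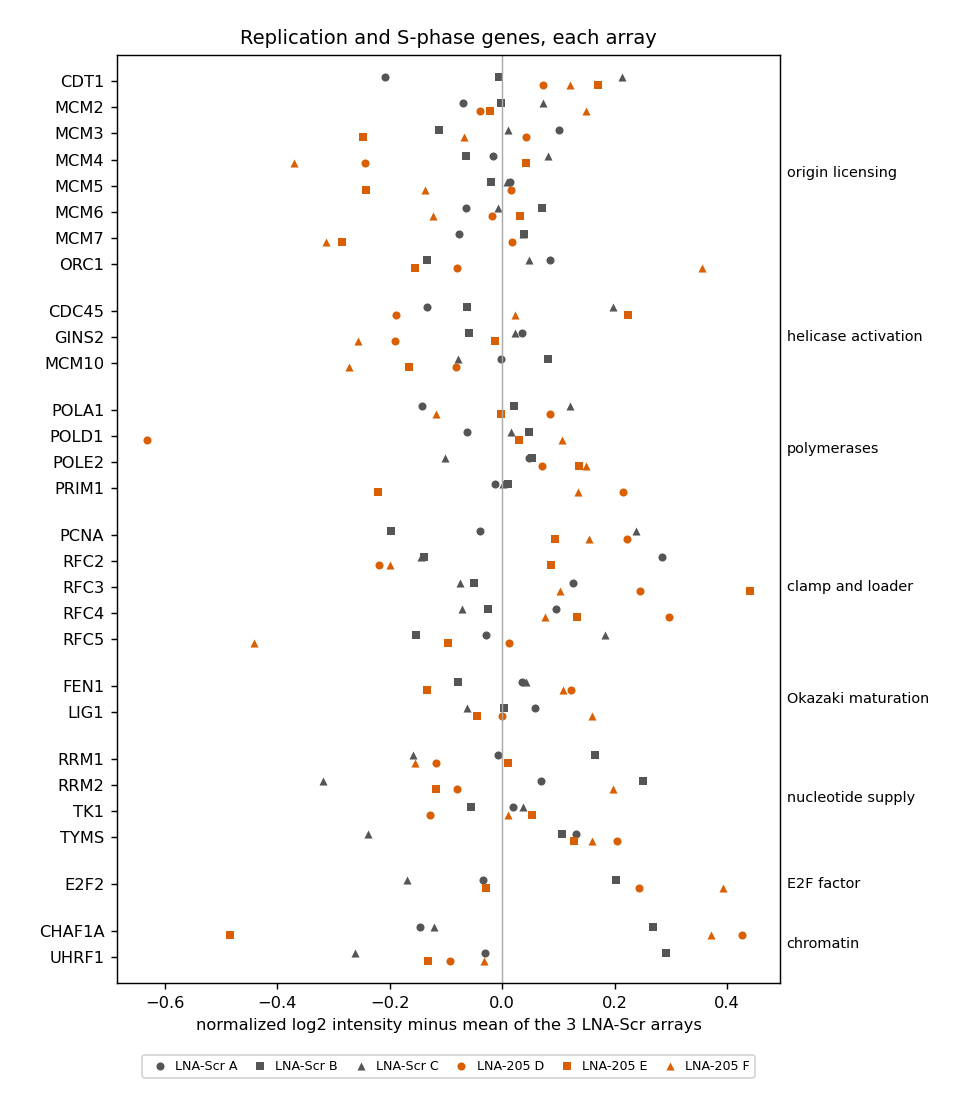
Each point is 1 array, plotted as its normalized log2 intensity minus the mean of the 3 LNA-Scr arrays for that gene, with genes in rows by role. LNA-Scr arrays (grey) and LNA-205 arrays (orange) overlap in every gene but MCM10 and POLE2.

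Among the genes of origin licensing, 8 of 9 were measured, 0 passed in either direction, and the median log2 difference was −0.06. The MCM2 to MCM7 genes encode the subunits of the replicative helicase. MCM7 gave normalized log2 intensities of 14.25, 14.37 and 14.37 on the LNA-Scr arrays A, B and C and of 14.35, 14.04 and 14.01 on the LNA-205 arrays D, E and F. Array D lay among the controls while E and F lay below them. Its log2 difference was −0.19 (SE 0.12, 95% interval −0.47 to 0.09, limma adjusted p = 0.832).

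MCM4 read 12.97, 12.92 and 13.07 in LNA-Scr and 12.74, 13.03 and 12.62 in LNA-205, a log2 difference of −0.19 (SE 0.13, adjusted p = 0.845). Here array E lay among the controls and D and F lay below them. Of MCM4 and MCM7, array F was low for both, D only for MCM4 and E only for MCM7. MCM3 read 14.19, 13.98 and 14.10 in LNA-Scr against 14.13, 13.84 and 14.02 in LNA-205, a log2 difference of −0.09 (SE 0.12), or −0.01 without array E, with overlapping groups. Log2 differences were −0.12 for MCM5, −0.04 for MCM6 and 0.03 for MCM2, with SEs of 0.10 to 0.11.

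The loading factor and the origin recognition gene that were measured did not pass either. CDT1, which brings the MCM ring to the origin, read 10.46, 10.66 and 10.88 in LNA-Scr and 10.74, 10.84 and 10.79 in LNA-205, a log2 difference of 0.12 (SE 0.13). The LNA-205 values lay inside the range of the controls. ORC1, a subunit of the origin recognition complex, differed by 0.04 (SE 0.15). CDC6, the ATPase that loads the helicase with CDT1, has 1 probe, and that probe was above background on 0 of the 6 arrays. It read 6.63 to 6.81 in LNA-Scr and 6.73 to 7.30 in LNA-205, and no difference is given.

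Of the genes that activate the helicase, 3 of 4 were measured and 0 passed. MCM10, which helps turn the loaded ring into a moving helicase, read 11.25, 11.34 and 11.18 in LNA-Scr and 11.17, 11.09 and 10.98 in LNA-205. Every LNA-205 array lay below every LNA-Scr array, with D and C close together. The log2 difference was −0.17 (SE 0.10, 95% interval −0.42 to 0.07, adjusted p = 0.827).

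GINS2, a subunit of the GINS complex, read 12.35, 12.26 and 12.34 in LNA-Scr against 12.13, 12.30 and 12.06 in LNA-205, a log2 difference of −0.15 (SE 0.11, adjusted p = 0.849). Array E lay within the control range. CDC45, the helicase partner of GINS, differed by 0.02 (SE 0.14). GINS1, another GINS subunit, read 5.68 to 6.35 and was above background on 0 arrays.

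The 4 polymerase and primase genes were all measured and 0 passed. POLE2, a subunit of the leading-strand polymerase epsilon, read 11.04, 11.04 and 10.89 in LNA-Scr and 11.06, 11.13 and 11.14 in LNA-205, a log2 difference of 0.12 (SE 0.10, adjusted p = 0.884). The groups did not overlap, and the gap between them was smaller than the SD of either group, 0.09 in LNA-Scr and 0.04 in LNA-205. POLD1, the catalytic subunit of the lagging-strand polymerase delta, read 10.62, 10.73 and 10.70 in LNA-Scr and 10.05, 10.71 and 10.79 in LNA-205. Array D alone was low, and the log2 difference of −0.17 (SE 0.19) became 0.07 without it. POLA1 and PRIM1, of the polymerase that lays down primers, differed by −0.01 (SE 0.11) and 0.04 (SE 0.13).

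The sliding clamp and its loader gave the largest positive difference of the 29 genes, without passing the test. RFC3, a clamp loader subunit, read 10.59, 10.41 and 10.39 in LNA-Scr and 10.71, 10.90 and 10.57 in LNA-205. Array F lay just below control array A, so the groups overlapped by 1 array. The log2 difference was 0.26 (SE 0.12, 95% interval −0.02 to 0.55, adjusted p = 0.793).

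RFC4 read 11.73, 11.61 and 11.56 in LNA-Scr and 11.93, 11.77 and 11.71 in LNA-205, a log2 difference of 0.17 (SE 0.11, adjusted p = 0.841). RFC2 and RFC5, subunits of the same complex, differed by −0.11 (SE 0.15) and −0.18 (SE 0.15). RFC1, the large subunit of the loader and not among the 33 genes, read higher on every LNA-205 array at 0.22 (SE 0.11, adjusted p = 0.793), with 0.21 on another probe. PCNA, the clamp itself, read 13.43, 13.27 and 13.71 in LNA-Scr and 13.69, 13.56 and 13.62 in LNA-205, a log2 difference of 0.16 (SE 0.13), with all LNA-205 values inside the control range. It ranged from 0.06 without array B to 0.28 without C. FEN1 and LIG1, the nuclease and ligase that finish Okazaki fragments, differed by 0.03 (SE 0.11) and 0.04 (SE 0.10).

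The 4 genes of nucleotide supply were measured and 0 passed. TYMS (thymidylate synthase) read 12.85, 12.82 and 12.47 in LNA-Scr and 12.92, 12.84 and 12.87 in LNA-205, a log2 difference of 0.16 (SE 0.13, adjusted p = 0.867). Control array C alone was low, and the difference was 0.04 without it. RRM1, the large subunit of ribonucleotide reductase, read 13.58, 13.75 and 13.43 in LNA-Scr and 13.47, 13.60 and 13.43 in LNA-205, a log2 difference of −0.09 (SE 0.12), with overlapping groups. It ranged from −0.17 without array C to −0.01 without B. RRM2, the small subunit that peaks in S phase, differed by 0.00 (SE 0.16) and TK1 (thymidine kinase) by −0.02 (SE 0.10).

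Of the regulators, E2F2 was the only gene measured among E2F1, E2F2 and CCNE2. E2F2, an activating E2F factor, read 10.01, 10.24 and 9.87 in LNA-Scr and 10.28, 10.01 and 10.43 in LNA-205. Arrays D and F lay above the controls while E lay among them, and the log2 difference was 0.20 (SE 0.15, 95% interval −0.14 to 0.54, adjusted p = 0.853). It was 0.32 without array E and 0.11 without F. E2F1, which has been reported elsewhere as a target of miR-205, was above background on 1 of the 6 arrays, LNA-Scr replicate A at 7.23, and read 6.17 to 6.58 on the other 5. CCNE2 (cyclin E2) was above background on none and read 5.31 to 6.13. For both, no level or fold is given.

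The genes of chromatin replication did not pass either. UHRF1, which keeps DNA methylation in step with replication, differed by −0.09 (SE 0.15). CHAF1A, the large subunit of the histone chaperone CAF-1, varied more than the others, reading 8.60, 9.01 and 8.62 in LNA-Scr and 9.17, 8.26 and 9.11 in LNA-205. Array E was the lowest of the 6 and D and F the highest. The log2 difference was 0.10 (SE 0.24), and it was 0.40 without array E.

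Genes with another passing probe allowed each difference to be read again on the same arrays. This held for 11 of the 29 genes, and for 4 of these the next brightest probe gave the same sign as the brightest. Among all 2201 genes with more than 1 passing probe the sign agreed in 57.2%. Over the 11 genes the median log2 difference was −0.09 on the brightest probe and 0.15 on the next brightest. Over the 2201 genes these medians were 0.005 and 0.004. The next brightest probe gave the higher difference for 8 of the 11 genes and for 1070 of the 2201. The direction for these genes thus depended on which probe stood for them. MCM4 gave −0.19 on its brightest probe and 0.21 (SE 0.12) on the other. MCM10 likewise gave −0.17 and 0.17 (SE 0.11), and MCM7 −0.19 and 0.17 (SE 0.14), with −0.02 on its remaining probe. So the lower values named above for these helicase genes came from 1 probe of each gene and were met by higher values on another.

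RFC3 and RFC4 kept their sign, at 0.15 (SE 0.11) and 0.03 (SE 0.10), and so did FEN1, at 0.23 (SE 0.12), and PRIM1, at 0.15 (SE 0.17). PCNA gave −0.05 (SE 0.12), MCM3 0.05 (SE 0.11), RFC2 0.15 (SE 0.21) and UHRF1 0.02 (SE 0.21), each with the opposite sign. The median absolute gap between probes of a gene was 0.20 for these 11 genes and 0.13 for all 2201. Which transcripts each probe reads was not tested.

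**Figure D2:**
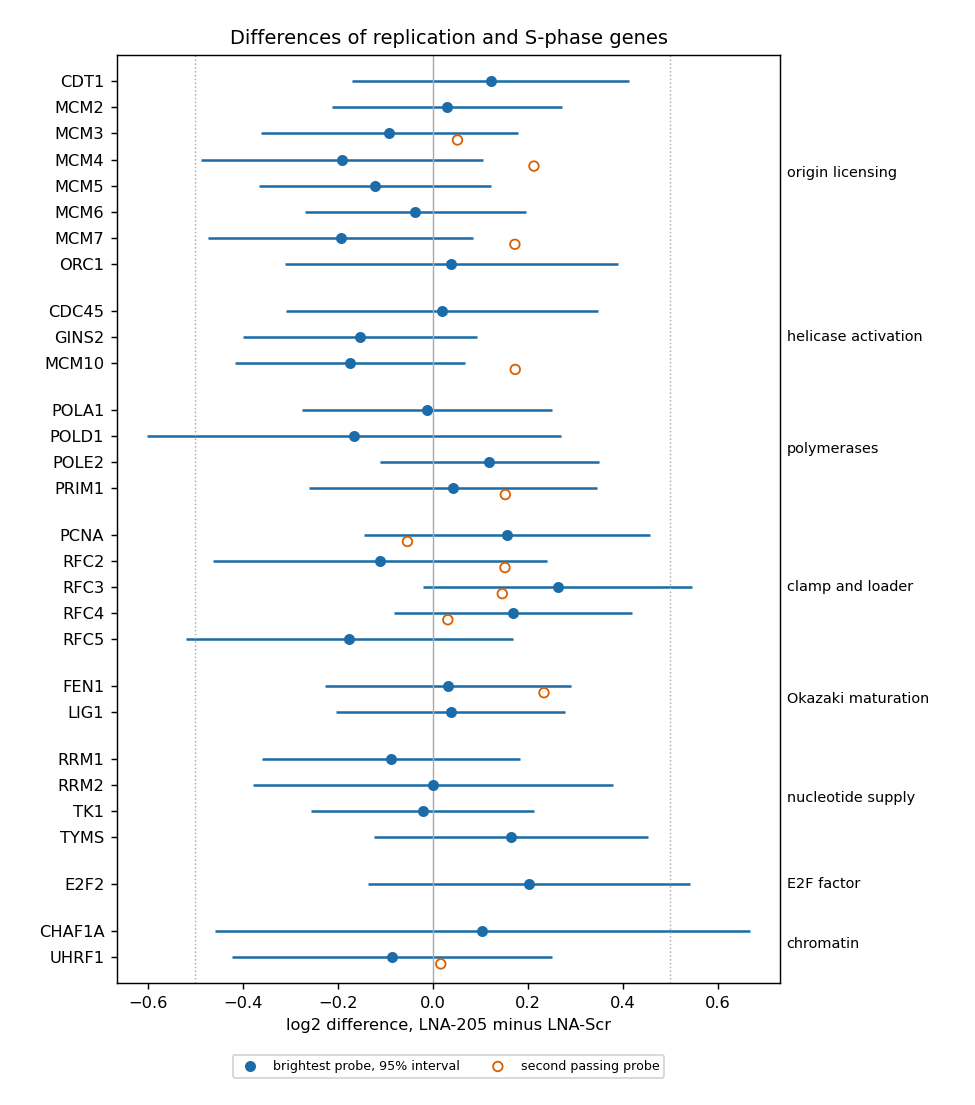
Log2 difference, LNA-205 minus LNA-Scr, for the 29 measured genes by role, with filled points for the brightest probe, bars for its 95% interval and open circles for the next brightest passing probe. Every bar crosses 0, and the circles of MCM4, MCM7 and MCM10 lie on the other side of 0 from their filled points.

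The array score, the mean over the 29 genes of each value minus its mean over the 6 arrays, did not separate the groups. It was 0.0031, 0.0175 and −0.0146 on LNA-Scr arrays A, B and C and 0.0081, −0.0259 and 0.0118 on LNA-205 arrays D, E and F. LNA-Scr replicate B was highest and LNA-205 replicate E lowest. Between these ends, LNA-205 arrays F and D lay above LNA-Scr arrays A and C. The difference between group means was −0.0040, smaller than the SD of either group, 0.0161 in LNA-Scr and 0.0208 in LNA-205. With probes of a gene averaged it was 0.0214, and with every detected probe 0.0283, both above the pooled SD within groups of 0.0169 and 0.0161. With arrays scaled to a common median it was −0.172, with an SD of 0.126. It was 0.0038 without LNA-Scr replicate B and 0.0080 without LNA-205 replicate E, so its sign depended on single arrays. No p is given for the score, because the genes were chosen with earlier results known.

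Scores by role differed in sign. Between group means they differed by −0.103 for helicase activation (3 genes), −0.0553 for licensing, −0.0037 for polymerases and primase, 0.0094 for chromatin replication, 0.0138 for nucleotide supply, 0.0352 for Okazaki fragment maturation and 0.0605 for the clamp and loader, while E2F2 alone stood for its role at 0.20. The chromatin score, of 2 genes, ranged most over the arrays among roles with more than 1 gene, from −0.313 on E to 0.275 on B. The licensing score was −0.0017, −0.0010 and 0.0856 in LNA-Scr and −0.0015, −0.0608 and −0.0205 in LNA-205, with array C above the rest. All scores by role rest on the brightest probe of each gene. Averaged over its probes, MCM3 differed by −0.02, MCM4 by 0.01, MCM7 by −0.01 and MCM10 by −0.0002. In that setting 4 licensing genes lay above and 4 below the median of all features. The clamp and loader score was 0.0575, −0.143 and −0.0049 in LNA-Scr and 0.0812, 0.101 and −0.0918 in LNA-205, with arrays B and F low. The nucleotide supply score was lowest on array C, at −0.177, and ran from −0.0373 to 0.109 on the others.

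After each group mean was taken off, the mean correlation between 2 of these genes over the 6 arrays was −0.03, against 0.00 over all features, 0.04 for other E2F target genes and −0.01 for G2/M genes. The correlation of a gene with the mean of the other 28 ran from 0.92 (E2F2) and 0.59 (PRIM1) to −0.93 (GINS2) and −0.96 (MCM4), as a description over 6 arrays. These are descriptions with 4 residual degrees of freedom, from arrays that were normalized together.

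**Figure D3:**
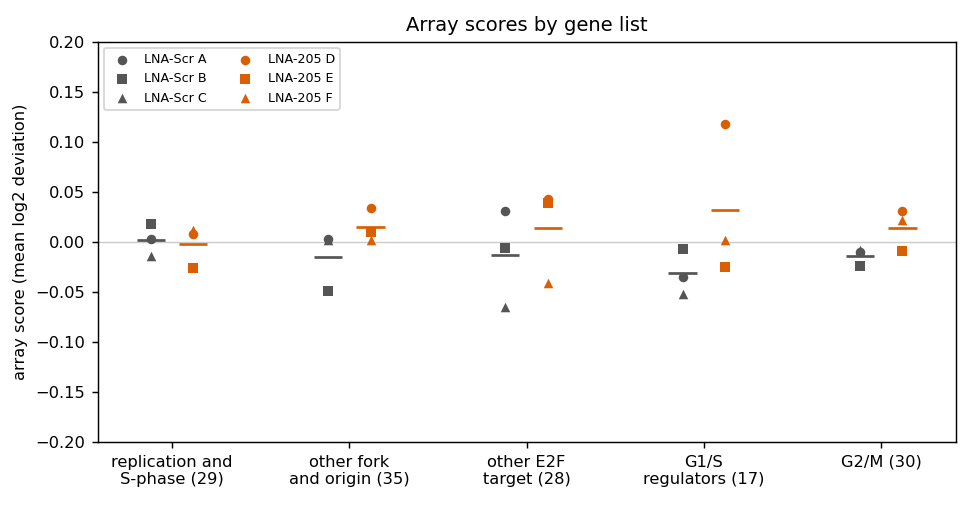
Array score (mean log2 deviation from the 6-array mean) of 5 gene lists, with 1 point per array, short lines for group means and the number of measured genes in brackets. For replication and S-phase genes the 6 arrays lie between −0.0259 and 0.0175 with the groups interleaved.

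No gene of the wider pathway passed the test either. Of 41 other fork and origin genes 35 were measured, 0 passed in either direction, and the median log2 difference was 0.03. CDC7, the kinase that triggers origin firing, read higher on every LNA-205 array, with a log2 difference of 0.27 (SE 0.11, adjusted p = 0.790). DNA2, a nuclease of Okazaki fragments, differed by 0.25 (SE 0.13), and by 0.43 on another probe. On the lower side stood MCM8, a helicase of recombination repair, at −0.18 (0.09 on another probe) and RPA3, of the single-strand binding complex, at −0.17. TOP1 gave the lowest value of this list, −0.33 (SE 0.27), and −0.44 on another probe. ORC6, an origin recognition subunit chosen for its bright probe, differed by 0.03 (−0.01 on another probe).

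Of 34 other E2F target and S-phase genes 28 were measured, 0 passed, and the median was 0.02. ASF1B, a histone chaperone, differed by 0.34 (SE 0.15, adjusted p = 0.791) and USP1, a deubiquitinase of DNA repair, by 0.19 (0.06 on another probe). NASP, a histone carrier, differed by −0.18 and SLBP, which binds histone messages, by −0.13 (−0.05 on another probe). USP1 read higher and SLBP lower on every LNA-205 array. PCLAF, a PCNA-binding factor, gave 0.00, and 0.27 on another probe.

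Of 20 G1/S regulators 17 were measured, 0 passed, and the median was 0.03. CDKN1B (p27), an inhibitor of cyclin E kinase, read higher on every LNA-205 array, with a log2 difference of 0.27 (SE 0.10, adjusted p = 0.767), but 0.04 on another probe. CDKN2B, an inhibitor of CDK4 and CDK6, differed by 0.35 (SE 0.17). CCND1 (cyclin D1) and the RB relative RBL1 differed by −0.11 and −0.14, and CCND2 by −0.01 (0.06 on another probe). In these lists 1, 0 and 1 genes reached an unadjusted p under 0.05, against 6.27% of all features. The groups did not overlap for 4, 3 and 2 higher genes of the 35, 28 and 17 measured, against 6.38% of all features. For lower genes the counts were 1, 1 and 0, against 5.78%.

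All 30 G2/M genes were measured and 0 passed, with a median of 0.03. NEK2, a centrosome kinase, differed by 0.24 (0.23 on another probe) and BUB1, of the spindle checkpoint, by 0.20, while CDC20, the activator of the anaphase-promoting complex, differed by −0.33 (SE 0.12, adjusted p = 0.749), HMMR by −0.14 (0.01 on another probe) and UBE2C by −0.04 (0.09 on another probe). In the G2/M list 1 gene, CDC20, reached an unadjusted limma p under 0.05, against 6.27% of all features. The groups did not overlap for 3 higher genes, against 6.38% of all features. They also did not overlap for 2 lower genes, CDC20 and HMMR, against 5.78%. Median differences of the 5 lists ran from 0.00 to 0.03. Whether replication genes differ from the other lists was not tested.

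Genes with and without an E2F-type match can be set side by side. The median log2 difference was 0.03 for the 14 measured genes with a match, 8 of them higher, and 0.00 for the 13 with a promoter and no match, 7 of them higher. MCM6, with 4 matches, read 13.27, 13.40 and 13.33 in LNA-Scr and 13.31, 13.36 and 13.21 in LNA-205, in overlapping ranges.

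**Figure D4:**
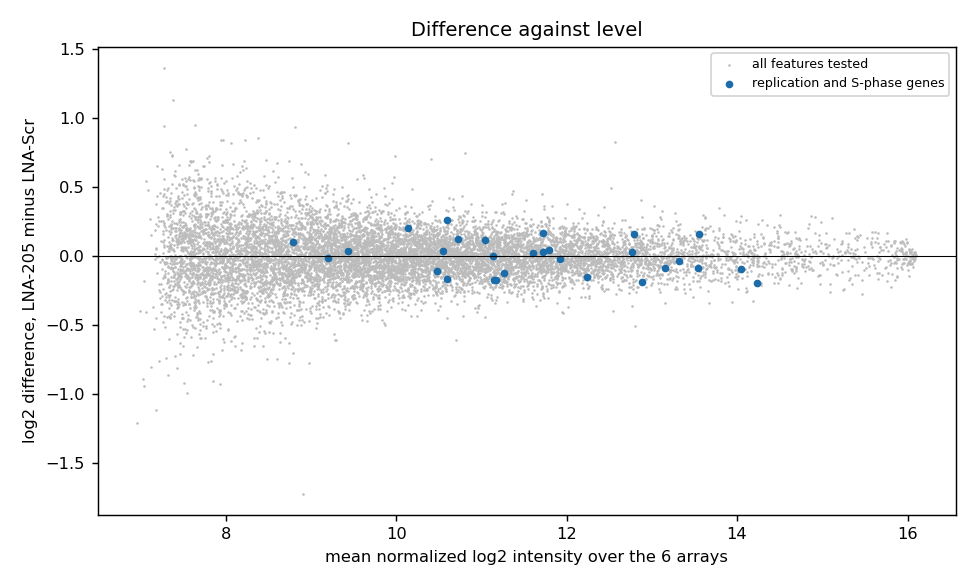
Log2 difference, LNA-205 minus LNA-Scr, against the mean normalized log2 intensity over the 6 arrays, with 10803 features in grey and the 29 replication and S-phase genes in blue. The blue points stay between −0.19 and 0.26, inside the grey cloud at their level.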

How the data were processed

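The deposited unnormalized table holds log2 probe intensities, as judged from its values: 2 to the power of each lies within 0.000248 of a number with 1 decimal. Detection p-values stand beside each sample, per the file headers. The log2 values that the authors processed serve as an alternative and were normalized by a method not given in the sources used here, and lumi is named, without version or role, per the submitters' processing notes. For LNA-205 replicate E these processed values equal the unnormalized ones on 48799 probes. Of 48803 rows 4 were empty. Background was corrected with limma's neqc (negative controls inferred from detection p, offset 16, quantile normalization, log2). Probes with a detection p under 0.01 on at least 3 arrays were kept (13423). Platform annotation named 28095 probes, and 28056 symbols were updated through RefSeq gene identifiers. The brightest probe stood for a gene, and unnamed probes stayed as features, 8952 genes and 1851 probes in all. Features were tested with limma 3.58.1 in R 4.3.3 (lmFit, eBayes, two-sided, Benjamini-Hochberg). The fit was also run on simulated data with independent errors. No recovered share is given here, so that run does not show what change would be found in these arrays. A negative difference is lower in LNA-205.

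Members and lists were chosen with earlier results of these data known. Besides genes past the threshold, the naming rule takes the 4 higher and 4 lower members with the smallest p and the 4 brightest, and for each other list 2 per direction and the brightest. Members outside it, named for overlap or spread (POLE2, POLD1, CHAF1A, CDT1, MCM6), and RFC1, TOP1 and KRT15, were singled out after their values were seen. Alternatives covered normalization, offset, filter, probe choice, variance model and each array left out.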

Additional observations from a re-analysis of the deposited data

How the results depend on the processing

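No paired analysis was possible because each replicate letter, from A to F, occurs in 1 group. Over 17 alternatives, 0 replication and S-phase genes passed the threshold in any; the median and the score difference of these genes, both near 0, changed sign in several (a median below 0 in 9 and a score difference above 0 in 6). Arrays scaled to a common median in place of quantile normalization gave a median of −0.149 and a score difference of −0.172 for these genes. That setting moved the median of all features to −0.161, so relative to all features the genes lay at 0.0116. There RFC4 read −0.000491, TYMS −0.0106 and PCNA −0.0395. The median was 0.0193 without a detection filter and 0.0193 with probes of a gene averaged, where the score difference was 0.0214 and MCM4 gave 0.0114. With every detected probe the median was 0.0318 and the score difference 0.0283. Leaving out 1 array gave medians of −0.0305 (without LNA-205 replicate F) to 0.00704 (without LNA-Scr replicate C). Of the 29 genes, 13 stayed on the same side of the median of all features in every alternative. The cause of these shifts was not tested. With 3 arrays per group, precision is limited by the number of arrays.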
